A study of Homo sapiens with 12 samples.

Results

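The transcripts of the MYC, MAX and MXD network were followed in SU-DHL-4, an established cell line of diffuse large B-cell lymphoma (DLBCL) of the germinal-centre type. The network was taken as the 10 genes MYC, MAX, MXD1, MXD3, MXD4, MXI1, MNT, MLX, MLXIP and MGA, found by symbol among the 46863 gene symbols of the deposited count table. The 10 genes passed the filter on low counts, which kept 16835 genes. The cells were exposed for 72 h to the vehicle DMSO, to 1 µM Entospletinib (Ento), which blocks the kinase SYK downstream of the B-cell receptor, to 0.01 µM AZD5153 (AZD), an inhibitor of BET proteins, or to the combination of both at the same concentrations (Ento+AZD). Each of the 4 groups held 3 libraries of poly-A RNA with the replicate numbers 1 to 3, and the cell line was labelled wild type in every group. One cell line at one time point and one concentration of each agent was measured, so the values describe this line only.

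MYC is a transcription factor that binds the E-box sequence as a heterodimer with MAX and drives genes of growth, ribosome synthesis and metabolism. The MXD proteins, MXI1 and MNT compete with MYC for MAX and bring the SIN3 corepressor with its histone deacetylases to E-boxes, while MGA ties MAX to a Polycomb complex. MLX is a MAX-like partner that pairs with MLXIP (MondoA), a sensor of glucose metabolites, and with some MXD proteins. BET proteins read acetylated histones at enhancers, and loss of MYC transcription is a widely described response of blood cancer cells to BET inhibitors.

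Total counts per library lay between 18121993 and 24675830, so that 1 count equalled 0.0393 to 0.0564 CPM, the count scaled to library size by TMM. The 7 germinal-centre B-cell markers were abundant in all libraries, with a summed level of 3986 to 7129 CPM. The T-cell markers CD3D and CD2 and the epithelial markers KRT8 and KRT18 were listed at 0, and CD3E had 9 to 51 counts. Of the fibroblast markers COL1A2 was listed at 0 and COL1A1 had at most 2 counts, whereas DCN had 674 to 2457 counts and differed by −0.45 on the log2 scale between Ento+AZD and DMSO (adjusted p = 0.00283); its part in the results below was not tested. A listed 0 is not proof of absence, since EIF4A1, a translation factor that every cell uses, was also listed at 0. These are bulk samples, in which fewer cells of a type and less RNA per cell cannot be told apart.

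Genes were tested with edgeR's quasi-likelihood F-test, with the replicate number as a block and Benjamini-Hochberg adjustment over the 16835 genes. A gene is said to have risen or fallen where its adjusted p was under 0.05, and it was a DEG where its absolute log2 fold change also exceeded 1. After Ento+AZD exposure 4 of the 10 network genes rose (MXD1, MXD4, MLXIP and MAX) and 2 fell (MXD3 and MXI1). Over all genes tested 19.2% rose and 20.8% fell. MXD3 was the network's one DEG, and 4.89% of all genes were lower DEGs. MYC, MNT, MLX and MGA did not pass the test. The median log2 fold change was 0.04 over the 10 genes and 0.01 over all genes.

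With AZD alone MXD1 and MXD4 rose and MXD3 fell, where 9.57% of all genes rose and 12.7% fell. With Ento alone no network gene rose and 2 fell (MXD3 and MXI1), where 4.66% of all genes rose and 3.66% fell. The comparisons against DMSO share their 3 control libraries, so the values of the agents are given side by side and are not independent of each other.

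**Figure D1:**
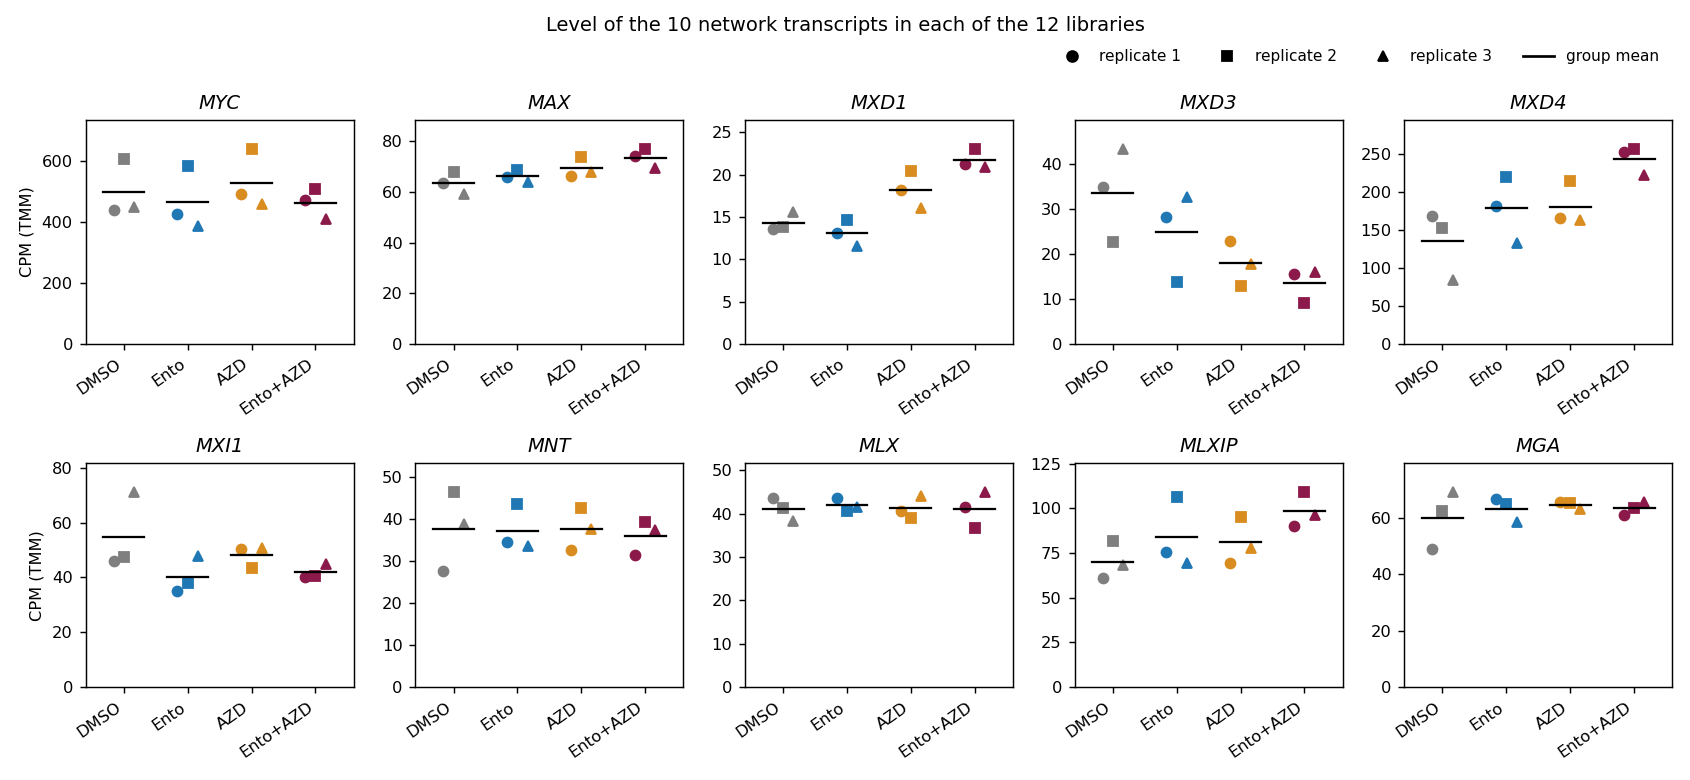
Level of each network transcript in CPM (y axis, from 0, separate scale for each gene) in the 12 libraries, by group (x axis); symbols mark the replicate number and the black bar is the mean of 3 libraries. MXD3 descends from DMSO to Ento+AZD within each replicate number, MXD4 and MXD1 are highest with Ento+AZD, and the MYC libraries of the 4 groups overlap.

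**Figure D2:**
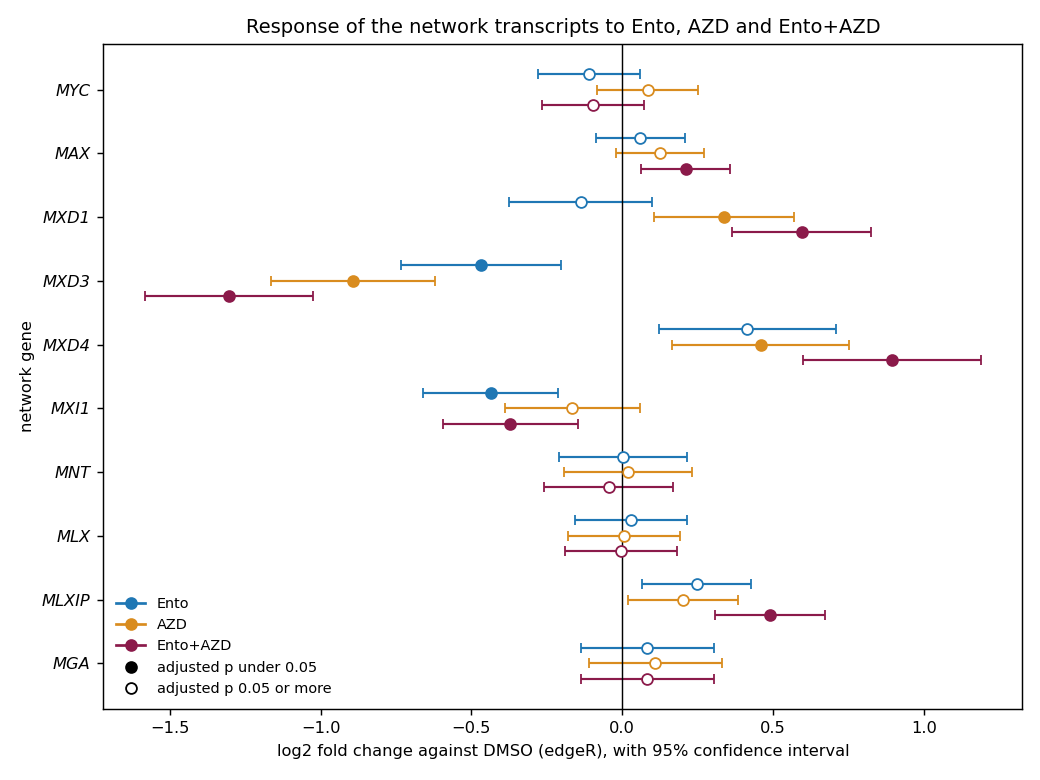
Log2 fold change of the 10 network genes against DMSO (x axis) for Ento, AZD and Ento+AZD, with 95% confidence intervals; filled points have an adjusted p under 0.05. The widest departures are those of MXD3 (−1.30) and MXD4 (0.89) with Ento+AZD, while the 3 intervals of MYC include 0.

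For MXD3, MXD4 and MXD1, the 3 genes whose Ento+AZD calls held under each of the 19 alternatives tried, the 250 bases before the transcription start are shown, with the E-box that the MYC:MAX and MXD:MAX dimers bind written in capitals where it occurs. They are from RefSeq on GRCh38.p14, 5′ to 3′ on the strand of the gene, at chr5:177312753-177313002 (minus strand) for MXD3, chr4:2262110-2262359 (minus strand) for MXD4 and chr2:69914859-69915108 (plus strand) for MXD1.
MXD3: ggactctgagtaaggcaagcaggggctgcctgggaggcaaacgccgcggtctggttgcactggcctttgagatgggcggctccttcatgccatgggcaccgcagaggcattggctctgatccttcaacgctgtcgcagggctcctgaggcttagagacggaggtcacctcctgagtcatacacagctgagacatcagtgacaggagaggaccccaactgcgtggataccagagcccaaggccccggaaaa
MXD4: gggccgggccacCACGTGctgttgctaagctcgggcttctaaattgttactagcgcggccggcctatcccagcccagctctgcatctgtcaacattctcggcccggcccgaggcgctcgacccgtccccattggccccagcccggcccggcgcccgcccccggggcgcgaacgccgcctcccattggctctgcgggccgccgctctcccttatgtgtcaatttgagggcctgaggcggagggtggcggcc
MXD1: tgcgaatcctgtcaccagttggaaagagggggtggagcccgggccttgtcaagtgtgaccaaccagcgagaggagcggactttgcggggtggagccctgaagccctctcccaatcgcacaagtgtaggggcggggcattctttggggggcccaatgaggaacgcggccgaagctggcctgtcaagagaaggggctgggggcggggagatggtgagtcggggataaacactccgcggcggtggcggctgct
The E-box was searched as CACGTG, which reads the same on both strands, from 250 bases before to 50 after the start. RefSeq gives 35116 windows of this length, of which 7.26% held it. MYC was left out of this search of the network genes. The other 9 of the 10 genes had 14 entries, since MAX, MXI1 and MGA have several starts. Those of MXD4, MNT and MLX each held 1 E-box. It began 238 bases before the start in MXD4, 193 before it in MNT and 50 before it in MLX. Of these 3 genes MXD4 rose after Ento+AZD exposure, and MNT and MLX did not pass the test. A match describes the sequence only.

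MYC itself (chr8:127735434-127742951, plus strand) was measured at 440.4, 607.3 and 450.5 CPM in DMSO replicates 1 to 3. It was at 427.1, 582.3 and 385.9 CPM with Ento, at 490.6, 639.0 and 458.9 CPM with AZD, and at 470.9, 506.9 and 410.2 CPM with Ento+AZD. Replicate 2 was the highest of each group, and the 4 groups overlapped. The means ordered the groups as Ento+AZD (463 ± 48.9 CPM, SD, n = 3), Ento (465 ± 104), DMSO (499 ± 93.6) and AZD (529 ± 96.1), and no neighbours in this order passed the test (adjusted p of at least 0.424).

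The log2 fold change of MYC was −0.10 (SE 0.08, adjusted p = 0.347) with Ento+AZD, and its 95% confidence interval ran from −0.27 to 0.07. With AZD it was 0.08 (interval −0.08 to 0.25, adjusted p = 0.476), the value being positive in the 3 replicate-numbered pairs. With Ento it was −0.11 (interval −0.28 to 0.06, adjusted p = 0.424), negative in the 3 pairs. A fall of MYC mRNA by as much as 0.27 on the log2 scale thus lies within the interval of Ento+AZD, and a larger one does not. This holds for the model with the replicate block. Without the block the Ento+AZD value was −0.11 (adjusted p = 0.696), and no interval was computed. The difference between AZD and Ento was 0.19 (adjusted p = 0.118), and it passed the test where only these 6 libraries were fitted. Between Ento+AZD and AZD the difference was −0.18 (interval −0.35 to −0.01, adjusted p = 0.147), negative in the 3 pairs.

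Levels per kb were divided by all annotated exon bases of a gene, not by the length of the transcripts expressed. Comparisons between genes on this scale depend on that choice. Per length of exon sequence MYC was the most abundant transcript of the network. It reached 81.8 ± 15.3 CPM per kb with DMSO (SD, n = 3) and 75.7 ± 8.003 with Ento+AZD, against 19.6 ± 6.48 and 35.4 ± 2.75 CPM per kb for MXD4, the next in order. The paralogue MYCN was listed at 0. MYCL was low, at 3.62 ± 1.21 CPM with DMSO, and had a log2 fold change of −0.49 with Ento+AZD (adjusted p = 0.0668). PVT1, the long non-coding RNA next to MYC, was at 26.0 ± 2.12 CPM with DMSO and 25.0 ± 0.871 with Ento+AZD (log2 fold change −0.05, adjusted p = 0.665), and CASC11, which shares 3.18% of the exon bases of MYC on the other strand, had 2 to 13 counts and was not tested.

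MAX (chr14:65006174-65102695, minus strand), the partner shared by MYC, the MXD proteins, MNT and MGA, had 63.5, 68.0 and 59.2 CPM with DMSO. With Ento+AZD it had 74.3, 76.9 and 69.5 CPM, each above the 3 DMSO libraries. It rose by 0.21 on the log2 scale (SE 0.07, 1.16-fold, adjusted p = 0.0245), and it was higher in 3 of 3 pairs. The single agents gave 0.06 with Ento (adjusted p = 0.641) and 0.13 with AZD (adjusted p = 0.208). The call was lost without the replicate block (adjusted p = 0.110), without DMSO replicate 3 (0.0633), without Ento+AZD replicate 1 (0.0966) or 3 (0.0734), with total counts as the scale (0.0693), with no filter on low counts (0.122) and with only the compared groups fitted (0.139). Exons of FNTB on the opposite strand overlap 13.1% of the exon bases of MAX. Per kb, the ratio of MYC to MAX transcripts was 7.10 to 9.15 with DMSO and 6.05 to 6.76 with Ento+AZD, and these ranges do not overlap, with no test of the ratio. With Ento it was 6.19 to 8.66, which overlaps both ranges, and with AZD 6.93 to 8.85, which overlaps that of DMSO.

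MXD3 (chr5:177301461-177312757, minus strand) encodes an MXD protein that, unlike its relatives, is known for expression in dividing cells. It was counted at 34.9, 22.6 and 43.3 CPM with DMSO and at 28.2, 13.7 and 32.6 CPM with Ento. With AZD the 3 libraries held 22.9, 12.9 and 17.9 CPM, and with Ento+AZD 15.6, 9.15 and 16.1 CPM. Replicate 2 was the lowest library in each group, so that DMSO replicate 2 lay below AZD replicate 1, whereas the Ento+AZD libraries were each below all DMSO libraries.

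MXD3 fell by 1.30 on the log2 scale with Ento+AZD (SE 0.13, 2.47-fold lower, adjusted p = 1.10e-05), in 3 of 3 pairs. It fell by 0.89 with AZD (SE 0.13, 1.86-fold lower, adjusted p = 6.03e-04) and by 0.47 with Ento (SE 0.12, 1.38-fold lower, adjusted p = 0.0327). Ento+AZD was lower than Ento by 0.84 (adjusted p = 9.14e-04) and AZD lower than Ento by 0.43 (adjusted p = 0.0386). Ento+AZD and AZD differed by −0.41 (adjusted p = 0.0606).

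The fall with Ento+AZD passed the test under the 19 alternatives tried, and the fall with AZD under all but the model without the replicate block (adjusted p = 0.164). That with Ento was lost without the block (0.657) and without Ento replicate 1 (0.119), DMSO replicate 2 (0.0716), Ento replicate 2 (0.191) or DMSO replicate 3 (0.119). Exons of RAB24 on the same strand and of PRELID1 on the opposite strand cover 19.5% and 24.2% of the exon bases of MXD3, and how the authors' counting used the strand is not given in the sources used here. With Ento+AZD the log2 fold change was −0.10 for RAB24 (adjusted p = 0.359) and 0.14 for PRELID1 (adjusted p = 0.321), neither of which passed the test.

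MXD4 (chr4:2247432-2262109, minus strand), an antagonist associated with quiescent and differentiated cells, moved the other way. The DMSO libraries held 167.7, 152.5 and 84.2 CPM and the Ento libraries 181.6, 219.2 and 133.3 CPM. AZD gave 164.9, 213.8 and 163.1 CPM, and Ento+AZD 252.1, 255.8 and 221.3 CPM. The 3 Ento+AZD libraries exceeded the other 9, and DMSO replicate 3 was the lowest of the 12.

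With Ento+AZD MXD4 rose by 0.89 on the log2 scale (SE 0.14, 1.86-fold, adjusted p = 2.01e-04), in 3 of 3 pairs and under the 19 alternatives. AZD raised it by 0.46 (adjusted p = 0.0287), with 2 of 3 pairs higher. Ento gave a log2 fold change of 0.42 (adjusted p = 0.0773), with 3 of 3 pairs higher. This value passed the test with no filter on low counts (adjusted p = 8.69e-05), with only the compared groups (0.0258), with DESeq2 (0.0368) and without DMSO replicate 1 (0.0125) or AZD replicate 1 (0.0498), and it was 0.23 without DMSO replicate 3 (0.276). Ento+AZD exceeded Ento by 0.48 (adjusted p = 0.0240), while its difference from AZD was 0.43 (adjusted p = 0.0525). Without DMSO replicate 3 the AZD value was 0.27 (adjusted p = 0.142). The AZD call was also lost without the replicate block (adjusted p = 0.332), with only the compared groups (0.0501) and without DMSO replicate 2 (0.0583), AZD replicate 2 (0.105) or AZD replicate 3 (0.169).

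MXD1 (chr2:69897688-69942945, plus strand), the founding MXD gene and known for its induction when blood cells differentiate, was the least abundant of these antagonists per kb with DMSO. Its DMSO libraries had 13.6, 13.8 and 15.6 CPM and its Ento libraries 13.1, 14.7 and 11.54 CPM. It reached 18.2, 20.4 and 16.02 CPM with AZD, above the 3 libraries of DMSO and of Ento. The Ento+AZD libraries, at 21.3, 23.0 and 20.9 CPM, were above all others.

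MXD1 rose by 0.60 with Ento+AZD on the log2 scale (SE 0.11, 1.51-fold, adjusted p = 6.92e-04), in 3 of 3 pairs and under the 19 alternatives. It rose by 0.34 with AZD (adjusted p = 0.0389), whereas the value with Ento was −0.14 (adjusted p = 0.483). Ento+AZD was higher than Ento by 0.73 (adjusted p = 7.46e-04), AZD was higher than Ento by 0.47 (adjusted p = 0.0104), and Ento+AZD and AZD differed by 0.26 (adjusted p = 0.131). The AZD call was near the threshold: it was lost in 8 of the 12 fits that left out 1 library, with an adjusted p up to 0.164 (without AZD replicate 2), without the replicate block (0.155), with total counts (0.0850), with only the compared groups (0.113) and with DESeq2 (0.0550). SNRNP27, whose exons cover 3.73% of those of MXD1 on the same strand, had a log2 fold change of 4.68e-04 with Ento+AZD (adjusted p = 0.997).

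MXI1 (chr10:110207605-110287365, plus strand), the antagonist also named MXD2, was counted at 46.1, 47.5 and 71.0 CPM with DMSO and at 35.1, 37.98 and 47.8 CPM with Ento. AZD gave 50.3, 43.4 and 50.8 CPM, and Ento+AZD 40.1, 40.4 and 45.0 CPM. The Ento+AZD libraries were below the DMSO libraries, of which replicate 3 stood above the other 2. MXI1 fell with both exposures that contained Ento, by 0.44 with Ento (SE 0.10, adjusted p = 0.0203) and by 0.37 with Ento+AZD (SE 0.10, adjusted p = 0.0117), in 3 of 3 pairs each. With AZD the value was −0.17 (adjusted p = 0.273), and AZD and Ento differed by 0.27 (adjusted p = 0.103).

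Without DMSO replicate 3 the MXI1 values were −0.31 with Ento (adjusted p = 0.0876) and −0.24 with Ento+AZD (adjusted p = 0.0729). The Ento+AZD call was also lost without Ento+AZD replicate 3 (0.0795) and without the replicate block (0.122), and the Ento call without any single Ento library (0.0540 to 0.121) and without the block (0.332).

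MNT (chr17:2384073-2401104, minus strand), the most widely expressed of the antagonists, did not pass the test in any comparison. Its group means were 37.6 ± 9.43 CPM with DMSO, 37.2 ± 5.56 with Ento, 37.7 ± 5.05 with AZD and 36.0 ± 4.10 with Ento+AZD (SD, n = 3 each). The log2 fold change was 0.00280 with Ento (adjusted p = 0.992) and 0.02 with AZD (adjusted p = 0.911). With Ento+AZD it was −0.05, with an interval from −0.26 to 0.17. Differences of a size seen for MXD1 or MXD4 with Ento+AZD are outside this interval, which is that of the model with the replicate block.

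Summed per kb, the transcripts of MXD1, MXD3, MXD4, MXI1 and MNT amounted to 42.6 ± 2.27 CPM per kb with DMSO, 44.3 ± 4.25 with Ento, 45.4 ± 3.42 with AZD and 52.9 ± 1.81 with Ento+AZD (SD, n = 3 each). The Ento+AZD libraries (50.8 to 54.1) lay above the other 9 libraries (40.0 to 49.3). The make-up of this sum also differed between the groups. MXD4 contributed 54.4%, 52.2% and 30.4% of it in DMSO replicates 1 to 3, and 68.3%, 68.8% and 63.4% with Ento+AZD. The share of MXD3 was 16.4%, 11.2% and 22.6% with DMSO and 6.11%, 3.56% and 6.67% with Ento+AZD.

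The ratio of MXD4 to MXD3 per kb was thus 3.32, 4.65 and 1.34 in the DMSO libraries, and 11.2, 19.3 and 9.501 in the Ento+AZD libraries of the same numbers. Single agents gave 4.45, 11.1 and 2.82 (Ento) and 4.97, 11.4 and 6.30 (AZD), so that replicate 2 was the highest of each group. MYC transcripts exceeded the antagonists' sum in all 12 libraries, by a ratio of 1.61 to 2.34 with DMSO and of 1.32 to 1.53 with Ento+AZD. Ratios and shares are descriptions, without a test, and their size depends on the exon bases taken as the length of each gene.

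**Figure D3:**
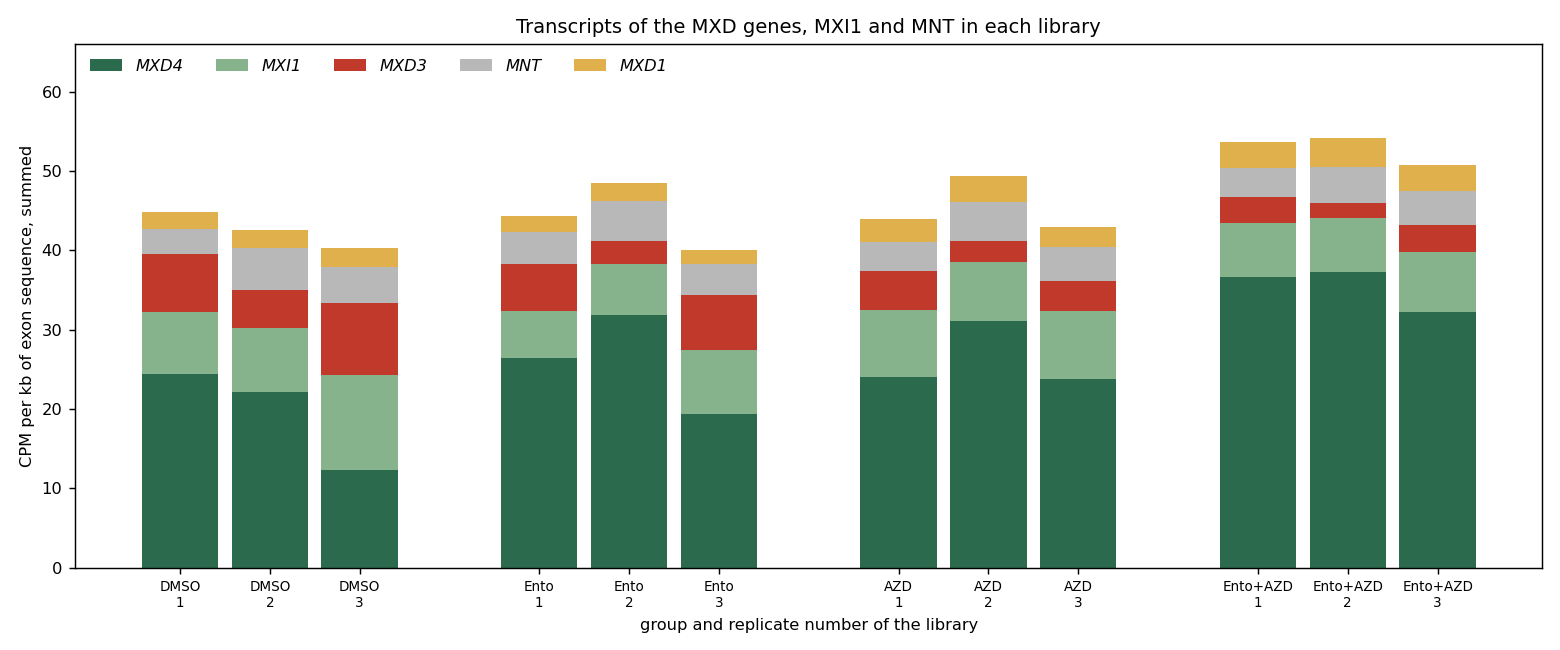
Transcripts of MXD4, MXI1, MXD3, MNT and MXD1, stacked as CPM per kb of exon sequence (y axis, from 0) for each of the 12 libraries (x axis, group and replicate number). The stacks of Ento+AZD reach 50.8 to 54.1, with the highest mean of MXD4 (35.4) and the lowest mean of MXD3 (2.87) of the 4 groups.

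MLXIP (chr12:122078756-122147344, plus strand) rose with Ento+AZD, from 60.7, 81.5 and 68.4 CPM with DMSO to 89.9, 108.8 and 96.0 CPM. Its Ento libraries had 75.8, 106.5 and 69.4 CPM and its AZD libraries 69.5, 95.2 and 77.95 CPM, both overlapping the DMSO libraries. The Ento+AZD libraries were each above those of DMSO. The log2 fold change was 0.49 (SE 0.08, 1.405-fold, adjusted p = 4.73e-04) with Ento+AZD, 0.25 with Ento (adjusted p = 0.0871) and 0.20 with AZD (adjusted p = 0.101), with 3 of 3 pairs higher in each. Without Ento replicate 3 the Ento value passed the test (0.35, adjusted p = 0.0311). It was the network gene that passed the test between Ento+AZD and AZD (0.29, adjusted p = 0.0408). No exon of another gene overlaps MLXIP, and the Ento+AZD call was lost under 1 of the 19 alternatives, the model without the replicate block (adjusted p = 0.0744).

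MLX (chr17:42567072-42573239, plus strand), its partner, had group means of 41.0 ± 2.63 CPM with DMSO and 41.0 ± 4.15 with Ento+AZD, and log2 fold changes of 0.03 with Ento, 0.01 with AZD and −0.00423 with Ento+AZD (interval −0.19 to 0.18). PSMC3IP, which covers 18.2% of the exon bases of MLX on the opposite strand, fell by 0.83 (adjusted p = 3.80e-04). TXNIP and ARRDC4, arrestin-family genes that serve as readouts of MLXIP:MLX, had log2 fold changes of 0.02 and 0.13 with Ento+AZD (adjusted p = 0.955 and 0.325). ARRDC4 rose with AZD (0.33, adjusted p = 0.0253). MLXIPL, the other glucose-sensing partner of MLX, was listed at 0.

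MGA (chr15:41621134-41773081, plus strand), the largest protein of the network, was at 60.1 ± 10.2 CPM with DMSO and 63.5 ± 2.34 with Ento+AZD (log2 fold change 0.08, interval −0.14 to 0.30, adjusted p = 0.552). DMSO replicate 1, at 48.9 CPM, was its lowest library. The log2 fold change of MGA was 0.08 with Ento (adjusted p = 0.668) and 0.11 with AZD (adjusted p = 0.475).

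Set against the single agents, Ento+AZD differed from Ento in MXD1 and MXD4 (higher) and MXD3 (lower), where 8.27% of all genes were higher and 12.2% lower. Without the replicate block 1 of these 3 calls was left, that of MXD1. From AZD it differed in MLXIP alone, where 5.85% were higher and 6.04% lower, and that call was lost without the block. AZD differed from Ento in MXD1 (higher) and MXD3 (lower), where 5.73% were higher and 8.99% lower, and neither call was left without the block. Over all genes tested the calls without the block numbered 206, 17 and 539 in these comparisons in turn, against 3440, 2001 and 2478 with it.

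Whether the combination departed from the added log2 effects of Ento and AZD was tested as an interaction. No network gene reached an adjusted p under 0.05 in edgeR's quasi-likelihood test, as in 0% of all genes tested. At an unadjusted p under 0.05 there were 1652 genes, and DESeq2 called 7 at its adjusted p. One network gene was among the 1652, MXD1, whose interaction term was 0.40 (interval 0.07 to 0.73, unadjusted p = 0.0223, adjusted p = 0.467). The terms of MXD3 (0.06, interval −0.33 to 0.45) and MXD4 (0.02, interval −0.39 to 0.43) were near 0, with intervals wide enough to hold sizeable departures in either direction.

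**Figure D4:**
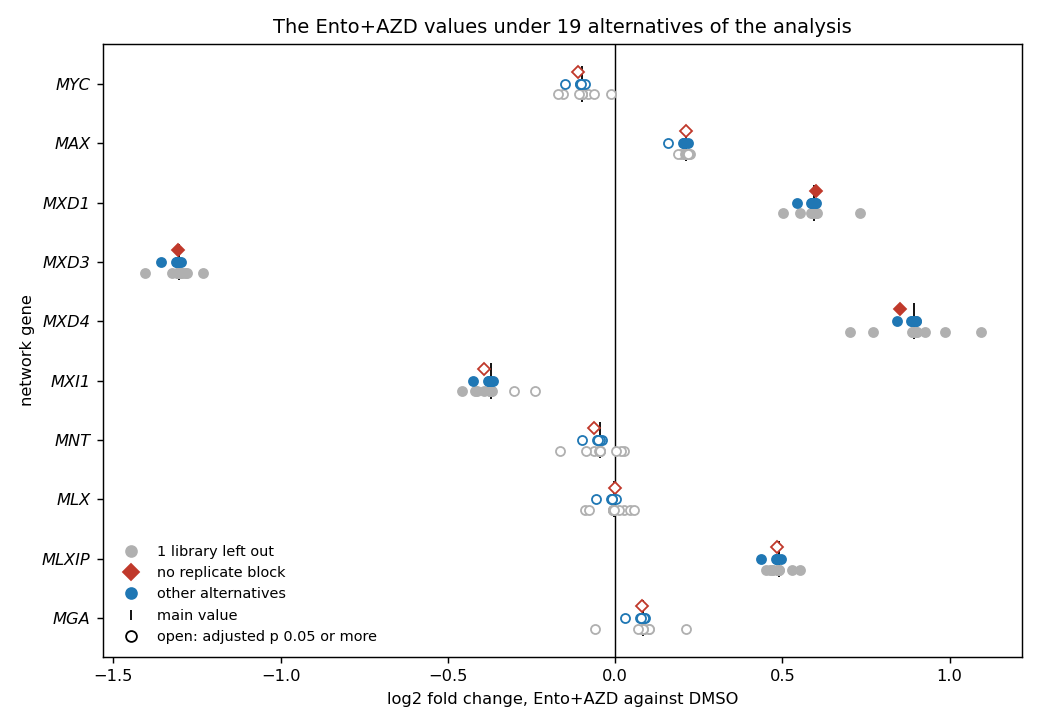
Log2 fold change of Ento+AZD against DMSO (x axis) for each network gene under 19 alternatives of the analysis; black bars are the reported values, grey points leave out 1 of the 12 libraries, red diamonds drop the replicate block, blue points change the scaling, filter, libraries or tool, and open symbols have an adjusted p of 0.05 or more. MXD1, MXD3 and MXD4 stay filled throughout, and MNT, MLX and MGA have values on both sides of 0.

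Genes that act with the network were followed in lists, each read beside the background of all genes given above. With Ento+AZD 19.2% of all genes rose and 20.8% fell, with AZD 9.57% and 12.7%, and with Ento 4.66% and 3.66%. The calls of the lists were not recomputed under the alternatives. Of 12 coactivators and partners of MYC, 1 rose and 1 fell with Ento+AZD. Both are the paired helicases of chromatin remodelling complexes, RUVBL1 (0.28, adjusted p = 0.0313) and RUVBL2 (−0.50, adjusted p = 4.78e-04). With AZD 1 rose and with Ento none passed the test, and the median of the list was 0.09 with Ento+AZD.

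Of 10 genes of MYC protein turnover 2 rose and 4 fell with Ento+AZD, with a median of −0.12. SKP2, an F-box protein of a ubiquitin ligase for MYC, fell by 1.23 on the log2 scale (SE 0.09, adjusted p = 1.82e-06), from 61.3 ± 8.83 to 26.0 ± 3.38 CPM. AURKA, a mitotic kinase that shields MYC family proteins from degradation, fell by 1.57 (adjusted p = 2.57e-05), and CIP2A, an inhibitor of the phosphatase PP2A towards MYC, fell by 0.70 (adjusted p = 6.61e-04). AZD gave 2 rises and 2 falls, and Ento 2 falls. Members of the list act on MYC in both directions, and several also serve the cell cycle.

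Of 13 genes of the SIN3 corepressor 2 rose and 5 fell with Ento+AZD, with a median of −0.11. ING2, a reader of methylated histone H3, fell by 1.08 (adjusted p = 6.16e-05) and the deacetylase HDAC2 by 0.45 (adjusted p = 2.63e-04), whereas HDAC1 rose by 0.41 (adjusted p = 4.05e-04). The scaffold SIN3A had a log2 fold change of −0.02 (adjusted p = 0.899, named after its value was seen). AZD gave 1 rise and 3 falls, and Ento 1 rise, that of HDAC1 (0.35, adjusted p = 0.00794). Of 9 genes of the MGA complex 1 rose and 3 fell with Ento+AZD, with a median of −0.20. PCGF6, its Polycomb ring finger subunit, fell by 1.07 (adjusted p = 2.18e-04), CBX3 by 0.24 (adjusted p = 0.0189) and RNF2 by 0.30 (adjusted p = 0.0192). AZD gave 1 rise and 1 fall, and no gene of this list passed the test with Ento.

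Of 30 genes often used as MYC-activated targets 29 were tested. With AZD 12 rose and 1 fell (median 0.31), with Ento 4 rose and none fell (median 0.25), and with Ento+AZD 8 rose and 7 fell (median 0.11). The transferrin receptor TFRC rose by 0.73 (adjusted p = 2.63e-04) and the ribosome biogenesis factor RRP12 by 0.70 (adjusted p = 8.16e-04) with Ento+AZD, while fibrillarin, FBL, which methylates ribosomal RNA, fell by 0.48 (adjusted p = 3.93e-04). With AZD TFRC rose by 0.80 (adjusted p = 6.75e-04) and RRP12 by 0.67 (adjusted p = 0.00332), and FBL was at −0.13 (adjusted p = 0.278). With Ento+AZD the remaining 14 did not pass the test, and both counts are to be read beside the 19.2% and 20.8% of all genes that rose and fell. The same shares were 9.57% and 12.7% for AZD, and 4.66% and 3.66% for Ento.

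Of 6 genes often used as MYC-repressed targets 5 were tested, and 2 fell with each exposure. They were CDKN1B and CDKN1A with Ento and with Ento+AZD, and CDKN1B and GADD45A with AZD. CDKN1A had −0.53 with AZD (adjusted p = 0.361). GADD45A, named after its value was seen, had −0.46 with AZD (adjusted p = 0.0309), 0.41 with Ento (0.0806) and 0.10 with Ento+AZD (0.589). The cyclin-dependent kinase inhibitor CDKN1B (p27) fell by 1.83 with Ento+AZD (adjusted p = 1.88e-04), from 11.2 ± 5.43 to 2.91 ± 0.232 CPM. CDKN1A (p21) fell by 1.89 (adjusted p = 0.00485), at low levels of 3.52 ± 2.73 and 0.876 ± 0.392 CPM. NDRG1, a growth arrest and stress gene, had a log2 fold change of −0.48 (adjusted p = 0.263). The median of the list was −0.48 with Ento+AZD. Over all genes tested 3.66% fell with Ento, 12.7% with AZD and 20.8% with Ento+AZD.

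**Figure D5:**
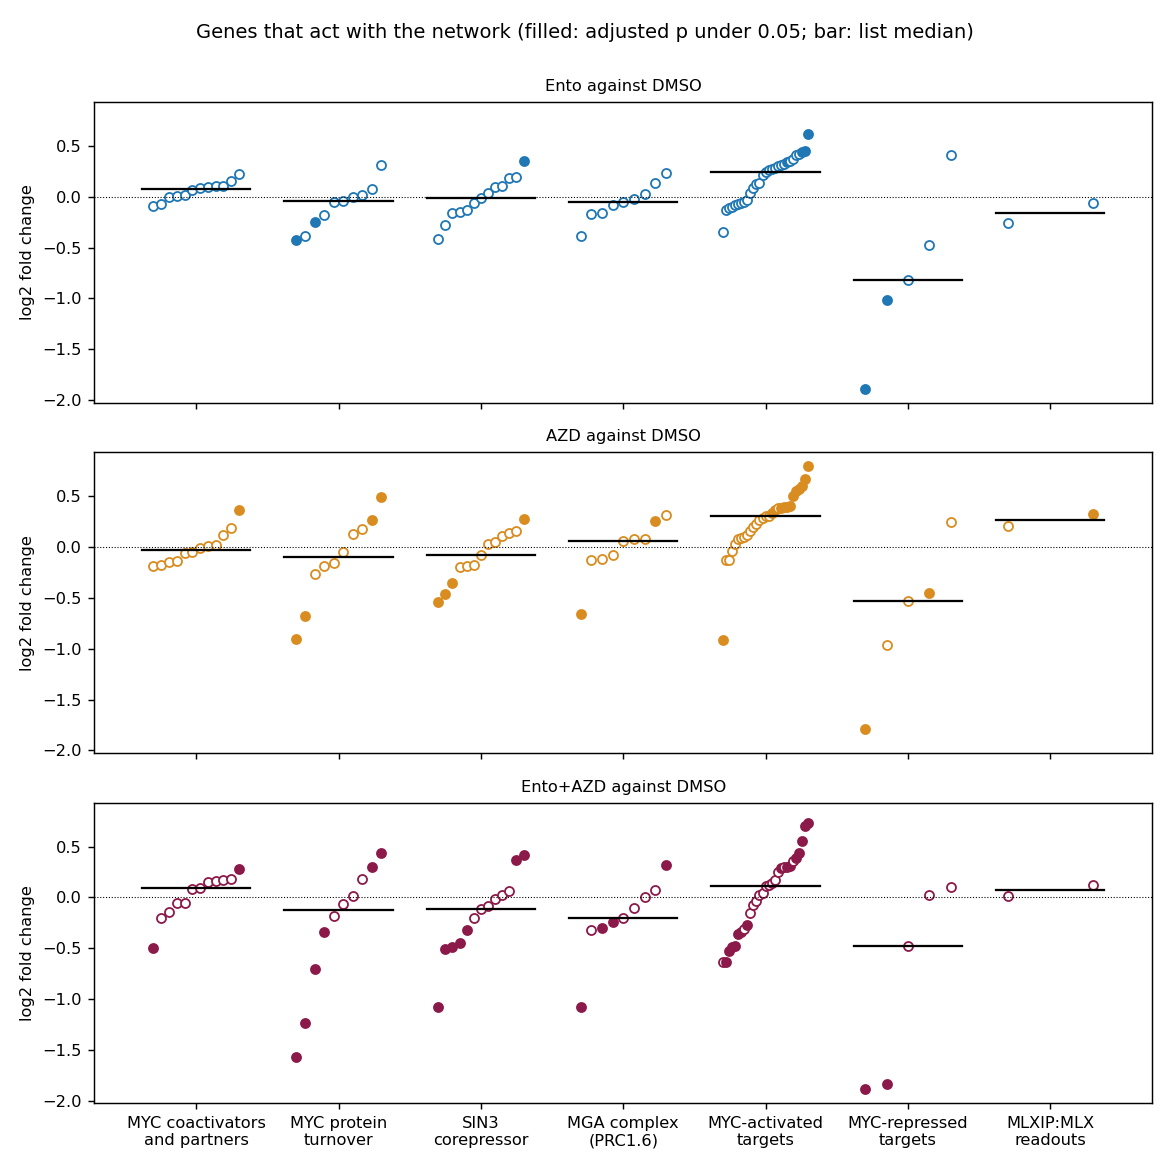
Log2 fold change against DMSO (y axis) of the genes of 7 lists (x axis), in one panel for each exposure; each point is a gene, filled where its adjusted p was under 0.05, and the black bar is the median of the list. With Ento+AZD the MYC-activated targets spread to both sides (8 rose, 7 fell), and the turnover list has its 4 falls down to −1.57.

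The genes whose pattern was most like that of MYC over the 12 libraries, once the means of the replicate numbers were removed, were ECSIT (Pearson r = 0.933), RAB1A (0.921), PLBD2 (0.918), DIS3L (0.917) and GOT2 (0.914), of 10913 genes with a mean of at least 5 CPM. None of these 5 passed the test against DMSO with any exposure. For MXD3 they were PSMG2 (0.985), ARHGAP19 (0.983) and NNT-AS1 (0.983), and for MXD4 SLC43A2 (0.993), SLC2A6 (0.990) and RPL23AP74 (0.989), the last a ribosomal protein pseudogene with near-identical copies. Within the network MXD3 ran against MXD4 (r = −0.914) and MAX (r = −0.934) over the same 12 libraries, and MXD4 with MAX (r = 0.892). MYC had r of 0.09 with MXD3 and −0.29 with MXD4. The 12 points fall into 4 treatment groups, so these coefficients describe the libraries and are not tests.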

How the data were processed

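Poly-A RNA was sequenced as single reads of 75 bases. The authors trimmed the reads with CutAdapt through Trim Galore, aligned them to GRCh38.p13 and counted them per gene with Rsubread, and they deposited raw counts per gene symbol without normalization. The submitters' processing notes also name hg19, with no role given. Strand setting, annotation release and handling of reads shared by several genes are not given in the sources used here. The sample titles give the groups and the replicate numbers. The study's statistics section describes its samples in general as biologically independent, and the sample labels do not say how these libraries were cultured. The p-values measure the spread between these libraries that is left once differences between the replicate numbers are removed.

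Counts were analysed with edgeR 4.0.16 in R 4.3.3 (filterByExpr by group, minimum count 10, minimum total 15; TMM; treatment group and replicate number, no intercept; two-sided quasi-likelihood F-test, Benjamini-Hochberg adjustment). The study's model has a batch term, taken here as the replicate number. As a check that the numbers pair the libraries, deviations from the group means were correlated. They gave 0.220 to 0.716 within a number (18 pairs, median 0.446) and −0.640 to 0.336 between numbers (36 pairs, median −0.243). The ranges overlap, and they are not independent, since the deviations of a group cancel. The block was kept. Libraries of a group differed by more than sampling noise (chi-square per degree of freedom of 8.21 to 48.5). Each standard error was the size of the log2 fold change over the square root of F, and CPM per kb uses the exon bases of GENCODE v44 on GRCh38. The test was tried on simulated counts.

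Every network gene is named in the comparisons with each agent. Of each list at most the 3 genes with the smallest adjusted p for Ento+AZD were named, with exceptions marked. One gene that this rule covers is not reported here. L3MBTL2, USP36 and the other called list members are given as counts. The network genes and lists were chosen with earlier results of these data known, so no p-value was adjusted over a list and no set was tested. Alternatives were other scalings, filters, libraries and models, and DESeq2 1.42.0. The deposited table of normalized log values was not used.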

Additional observations from a re-analysis of the deposited data

How the results depend on the processing

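The number of network genes called and the values of the 10 genes were recomputed under each alternative. Outside the fits that left out 1 library, 242 values kept their direction and their side of the threshold, 15 lost a call, 3 gained one and 10 changed direction. These values were those of the comparisons against DMSO and of the interaction. The main fit called 2 genes with Ento, 3 with AZD, 6 with Ento+AZD and 0 for the interaction. Most of the 242 were thus values that passed the test in neither fit. Without the replicate block the counts fell to 0 for Ento, 0 for AZD and 3 for Ento+AZD against DMSO, 1 for Ento+AZD against Ento, and 0 each for Ento+AZD against AZD and AZD against Ento. Calls over all 16835 genes fell too, to 36 for Ento (1401 with the block), 326 for AZD (3745) and 2398 for Ento+AZD (6736) against DMSO. The fall over all genes in the other comparisons is given above. Ento+AZD against AZD gave 2 with total counts, 3 with no filter, 2 with at least 1 CPM in at least 3 libraries, 3 with only the compared groups (fewer libraries) and 3 with DESeq2. With only the compared groups AZD against DMSO gave 1 and AZD against Ento 4. Leaving out each library gave 0 to 3 for Ento, 1 to 3 for AZD, 4 to 6 for Ento+AZD against DMSO, 2 to 4 for Ento+AZD against Ento, 0 to 2 for Ento+AZD against AZD, and 0 to 3 for AZD against Ento. The interaction stayed at 0 network genes in each, while over all genes it gave 278 with no filter and 213 without DMSO replicate 2.

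Directions changed only among values that did not pass the test, and the cause was not tested. MNT with Ento was −0.00345 with DESeq2's size factors and −0.00345 with DESeq2, −0.0305 with total counts, −0.000888 with no filter, −0.0158 without the block and −0.00571 with only the compared groups. With total counts MLX was −0.00310 with Ento and −0.0516 with AZD, and MNT −0.0388 with AZD. MLX with Ento+AZD was 0.00262 under the stricter filter. Leaving out 1 library gave, for Ento, AZD and Ento+AZD in turn, −0.12 to 0.0935, −0.0992 to 0.0936 and −0.17 to 0.0260 for MNT, −0.0581 to 0.0797, −0.0755 to 0.0566 and −0.0891 to 0.0568 for MLX, and −0.0608 to 0.20, −0.0314 to 0.24 and −0.0592 to 0.21 for MGA. For the interaction it gave −0.16 to 0.0512 for MNT, −0.11 to 0.0446 for MLX, −0.23 to 0.0330 for MGA, −0.0112 to 0.0549 for MAX, −0.0631 to 0.12 for MLXIP, −0.11 to 0.18 for MXD3, −0.18 to 0.20 for MXD4 and −0.14 to 0.0122 for MYC. The median of all genes lay between −0.0524 and 0.0319 on the log2 scale over the comparisons and alternatives. With 3 libraries a group, the 95% intervals of MNT, MLX and MGA with Ento+AZD include rises of up to 0.17, 0.18 and 0.30 on the log2 scale.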
